A study of Homo sapiens with 4 samples.

Results

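The proteasome subunit genes were examined in RD cells. RD is a human cell line grown from fusion-negative rhabdomyosarcoma (FN-RMS), a tumor of the skeletal muscle lineage that expresses MYOD. Members were the protein-coding genes of GENCODE release 44 (hg38) with a symbol made of PSMA, PSMB, PSMC or PSMD and digits, or PSME1 to PSME4. This gave 43 members of 20007 protein-coding genes on chromosomes 1 to 22, X and Y. The cells carried an shRNA against SKP2 (shSKP2) or a non-targeting shRNA (shSCR), both delivered in lentiviral vectors. SKP2 is the substrate-binding subunit of an SCF ubiquitin ligase that hands proteins to the proteasome. H3K27ac, an acetylation found on histones at promoters and enhancers in use, and MYOD, the master factor of myogenesis, were profiled by ChIP-seq, which gave 4 libraries, 1 per group. ChIP-seq used a single SKP2 shRNA, so shSKP2 stands for 1 infected culture, and there were no replicates from which to measure the error of any difference between arms. The values are therefore given side by side, without tests.

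The shSKP2 lists were longer than the shSCR lists. H3K27ac gave 38457 peaks in shSKP2 and 25356 in shSCR, which covered 23.7 and 11.6 Mb, and MYOD gave 8457 peaks in shSKP2 and 5814 in shSCR. Read totals were not in the lists. The lowest background of a list, used as a stand-in for depth, was 1.61 fragments in shSKP2 and 1.75 in shSCR for H3K27ac, and 1.94 in shSKP2 and 1.48 in shSCR for MYOD. Of 8 muscle-lineage markers 5 had a promoter H3K27ac peak in shSKP2 and 6 in shSCR, whereas 5 blood and 4 epithelial markers had none in either list. In the gene body with 10 kb on each side, a peak was found for 7 muscle-lineage markers in shSKP2 and 6 in shSCR. The counts were 4 and 3 for the blood markers and 3 and 3 for the epithelial markers.

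The proteasome is the cell's main machine for degrading ubiquitin-tagged proteins. Its 20S core is a barrel of alpha rings, which gate the entry, around beta rings, which hold the proteolytic sites, and the 19S particle caps the barrel with an ATPase ring that unfolds substrates and a lid that removes ubiquitin. In most cells these genes are transcribed together from promoters that hold NF-Y boxes (CCAAT) and antioxidant response elements, through which NFE2L1 raises subunit transcription when proteasome capacity falls. Muscle relies on the same machine for protein turnover and atrophy.

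MYOD binds E-boxes, and the sequences at the summits of the MYOD peaks near the members are shown because they are where the myogenic factor was detected at or near these housekeeping genes. Letters are the plus strand of hg38, and capitals mark the E-boxes CAGCTG or CAGGTG read on either strand, so that CACCTG stands for CAGGTG on the opposite strand. Windows lie at the E-box nearest the summit, or at the summit where there is none, and those that touch an annotated UTR are cut to 30 bases. For shared sites the shSKP2 summit was used. The first 6 sites had overlapping peaks in both lists, the next 4 a peak in shSKP2 only and the last in shSCR only. The PSMD9 window lies inside the shSKP2 peak only, since the overlapping shSCR peak ended at 121889112.

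PSMD8, upstream of the start site, chr19:38374495-38374554: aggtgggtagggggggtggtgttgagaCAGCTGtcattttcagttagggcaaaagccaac
PSMD5, upstream of the start site, chr9:120843294-120843353: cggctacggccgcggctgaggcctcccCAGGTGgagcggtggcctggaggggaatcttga
PSMD9, intron 1, chr12:121889301-121889360: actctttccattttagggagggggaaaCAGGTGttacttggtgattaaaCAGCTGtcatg
PSME1, upstream, within FITM1, chr14:24131458-24131487: ttgtgtctgccaCACCTGtcactgcctatc
PSME1 and PSME2, between the pair, within EMC9, chr14:24141116-24141175: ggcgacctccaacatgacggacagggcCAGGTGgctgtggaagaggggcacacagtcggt
PSMA2, downstream, within C7orf25, chr7:42912209-42912238: aaggcgcgcaccCACCTGgctccaggaaga
PSMC6, downstream, near the STYX promoter, chr14:52730044-52730103: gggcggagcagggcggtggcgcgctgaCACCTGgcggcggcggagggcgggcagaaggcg
PSME4, upstream of the start site, within ACYP2, chr2:53971109-53971138: cggtggtggcggCAGCTGgagcccaacggg
PSMB5, coding part of exon 1, chr14:23034693-23034752: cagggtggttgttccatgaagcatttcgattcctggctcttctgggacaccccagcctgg
PSMA7, intron 1, chr20:62141928-62141987: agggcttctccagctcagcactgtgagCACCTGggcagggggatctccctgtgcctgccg
PSMC3, upstream, outside protein-coding genes, chr11:47433274-47433333: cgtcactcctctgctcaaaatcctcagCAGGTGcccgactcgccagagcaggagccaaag

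All but the PSMB5 window hold one of these E-boxes. Within 50 bp of the summit, CAGGTG was present in 7 of 10 member peaks in shSKP2 and 5 of 7 in shSCR, beside 37.0% and 33.0% of all MYOD peaks of the same lists. CAGCTG was present in 4 of 10 and 2 of 7, beside 52.5% in shSKP2 and 56.2% in shSCR. An E-box of the general form CANNTG was found in 9 of 10 and 6 of 7, beside 86.1% and 87.6%.

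Promoter sequence from RefSeq (GRCh38.p14, 250 bases before to 50 after the start) was matched for 38 of 43 members and 15345 genes in all, and exact motifs were counted on both strands. The NF-Y box CCAAT was found in 18 members (47.4%, beside 36.6% of all promoters), and the antioxidant response core TGACNNNGC in 11 (28.9%, beside 14.3%). The ETS motif CCGGAAG was found in 12 (31.6%, beside 14.4%) and TGCGCA, a half-site of nuclear respiratory factor 1, in 5 (13.2%, beside 10.8%). E-boxes were no more frequent than elsewhere, with CAGCTG in 5 members (13.2%, beside 17.7%) and CAGGTG in 6 (15.8%, beside 19.8%). Among ribosomal protein genes CCGGAAG was as frequent (33.3%) but TGACNNNGC was not (10.1%), whereas among complex I genes CCGGAAG was in 15.6% and TGACNNNGC in 21.9%. The 250 bases upstream of 2 members that behaved differently in H3K27ac are shown on the coding strand, which is the plus strand of hg38 for both. PSMB3, a structural beta subunit, had a peak downstream of the start in shSCR only, and PSMD7, a lid subunit, showed the largest ratio of promoter pileup, shSKP2 over shSCR. Capitals mark CCAAT and TGACNNNGC in PSMB3, and CAGGTG and CCAAT in PSMD7.

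PSMB3, chr17:38752491-38752740: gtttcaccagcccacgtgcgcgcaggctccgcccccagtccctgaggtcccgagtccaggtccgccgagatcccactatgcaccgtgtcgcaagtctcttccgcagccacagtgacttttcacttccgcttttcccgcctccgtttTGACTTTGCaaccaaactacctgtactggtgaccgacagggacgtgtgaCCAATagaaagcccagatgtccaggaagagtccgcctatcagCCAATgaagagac
PSMD7, chr16:74296564-74296813: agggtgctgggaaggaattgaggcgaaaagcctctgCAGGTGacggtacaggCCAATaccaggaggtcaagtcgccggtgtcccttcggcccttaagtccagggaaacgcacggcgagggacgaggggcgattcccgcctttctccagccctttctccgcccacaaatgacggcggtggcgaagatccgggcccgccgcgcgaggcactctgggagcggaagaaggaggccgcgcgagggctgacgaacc

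The promoters of the proteasome were marked by H3K27ac in both arms. A peak overlapped the 1 kb on either side of the start site in both lists for 39 of 43 members, beside 39.1% of all protein-coding genes. PSME2, a subunit of the PA28 activator, was the only member with a promoter peak in shSKP2 alone, beside 10.6% of all genes. With only peaks of -log10 p of at least 10 (p being the deposited peak p-value), 33 members had a promoter peak in both lists and 6 in shSKP2 alone, beside 14.6% of all genes. PSMA8, the testis form of an alpha subunit, and PSMB11, the thymus form of a beta subunit, had no promoter peak in either list. PSME1, the partner of PSME2 in PA28, had none either, although PA28 is widely expressed.

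The fold deposited for a peak is the enrichment of its summit over local background. Over the 39 members marked in both lists, the highest promoter fold had a median of 7.52 in shSKP2 and 5.99 in shSCR, beside 6.44 and 5.21 over 7828 genes. It was higher in shSKP2 in 37 of 39 members, beside 79.2% of all genes marked in both, and the median ratio was 1.28 beside 1.199. The members thus stood above the typical marked promoter in each arm, with 30 of 39 over the overall median in shSKP2 and 27 of 39 in shSCR. The 2 exceptions were PSMD1, a large scaffold subunit of the 19S base, with a fold of 11.6 in shSKP2 and 13.5 in shSCR, and PSMC6, an ATPase, with 6.20 in shSKP2 and 6.53 in shSCR. When the summit pileup was divided by the lowest background of its own library, all 39 members were higher in shSKP2, beside 96.1% of all genes marked in both. The ratio ranged between 1.09 for PSMD6 and 2.56 for PSMD7, both of the lid, with a median of 1.88 beside 1.69 over all genes.

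**Figure D1:**
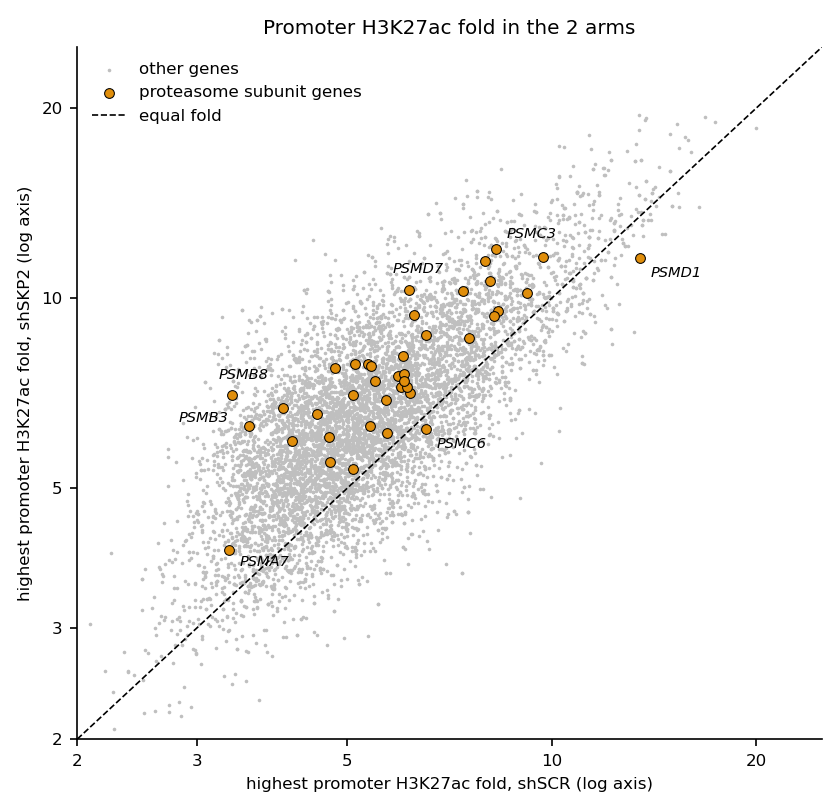
Highest H3K27ac fold at the promoter in shSKP2 (vertical, log axis) against shSCR (horizontal, log axis) for the 39 members marked in both lists (orange) and all other such genes (grey). The members lie above the dashed line of equal fold except PSMD1 and PSMC6.

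Cover, the number of base pairs under H3K27ac peaks in the gene body with 10 kb on each side, was larger in shSKP2 for most members. As a ratio the typical difference was smaller than over all genes covered in both lists. In base pairs its median was 0.535 kb for the members. This lay above the 0.4 kb over all genes but below the 0.721 kb over genes with a promoter peak in shSCR. Cover was larger by any amount in 38 of 43 members (88.4%), beside 66.8% of all genes, many of which had no peak at all. Among genes with a promoter peak in shSCR the share was 94.3%, above that of the members. Cover was smaller in 4 members (PSMB1, PSMB3, PSMD6 and PSMD7), beside 3.92% of all genes and 453 of 7981 genes with a promoter peak in shSCR. Over the gene body alone it was smaller in 9 of 43, beside 5.14%. PSMA8 had no peak in either list. The median cover was 1.497 kb in shSKP2 and 0.967 kb in shSCR. Over the 42 members covered in both lists the median ratio was 1.48, against 1.82 over all genes covered in both and 1.76 over genes with a promoter peak in shSCR. Cover at least 2-fold higher in shSKP2 was reached by 8 of 43 members, beside 35.9% of all genes and 38.7% of genes with a promoter peak in shSCR, and cover at least 2-fold lower by 1, PSMB1, beside 0.76%. The low count of members depended on the thresholds. With only peaks of -log10 p of at least 10, 17 of 43 members were past 2-fold, beside 37.7% of all genes, and at 1.5-fold 21 of 43 were, beside 51.1%.

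**Figure D2:**
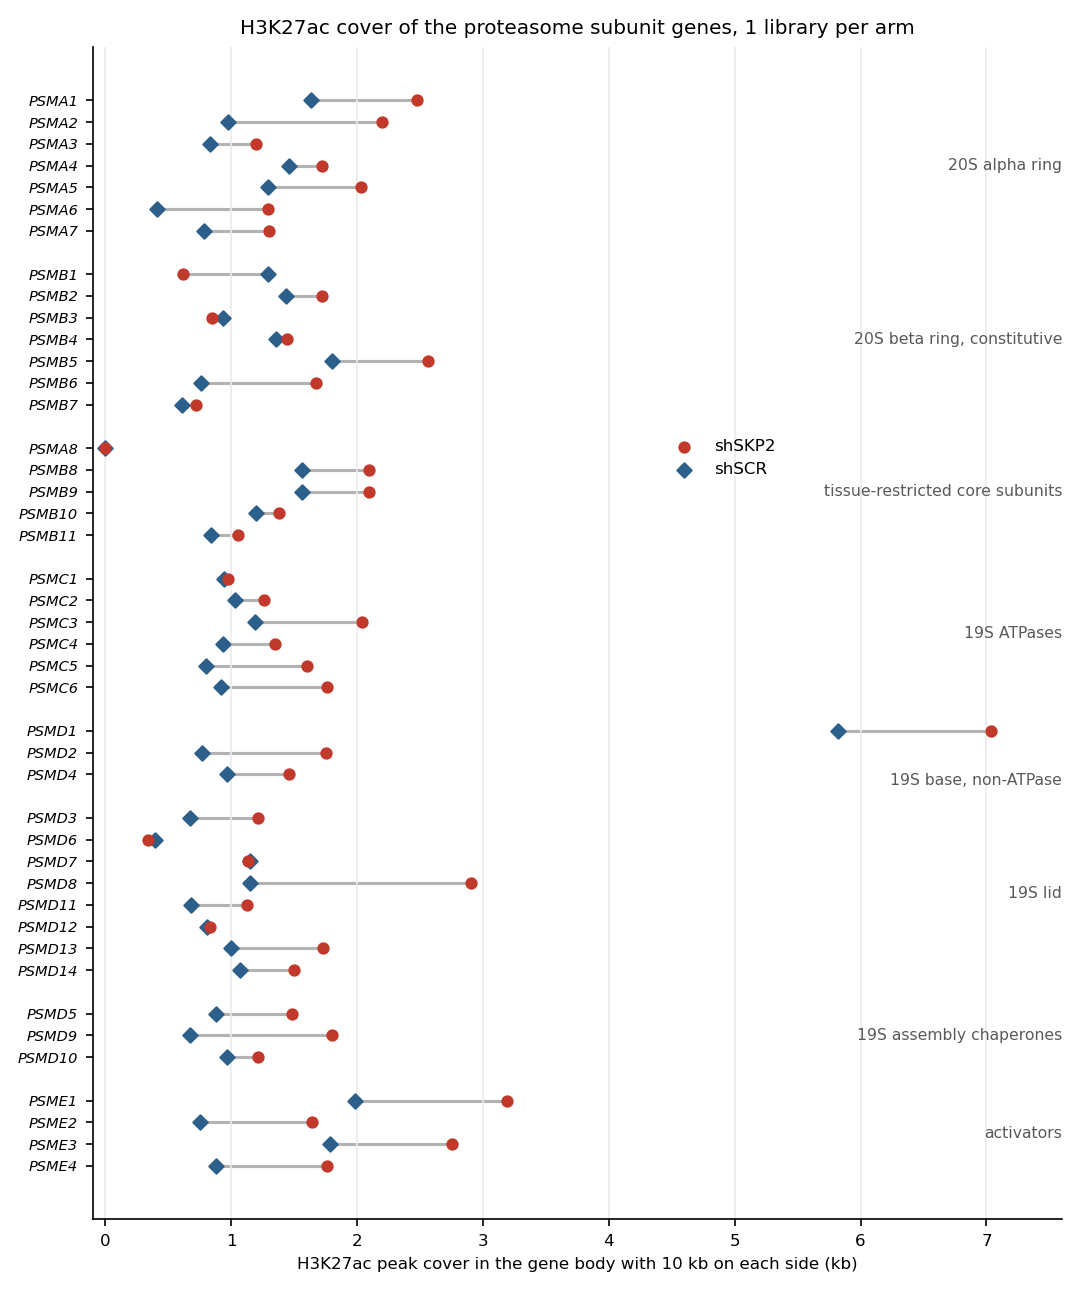
H3K27ac cover (kb) of each member in shSKP2 (red circles) and shSCR (blue diamonds), grouped by place in the proteasome, with a grey line joining the arms. Cover was larger in shSKP2 in 38 members, and PSMB1 had the largest difference in the opposite direction.

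The 8 members past 2-fold were PSMD8, PSMA2, PSMD9, PSMD2, PSMB6, PSME2, PSMA6 and PSME4. They come from the alpha ring, the beta ring, the base, the lid, the assembly chaperones and the activators, with no ATPase among them. PSMC5, an ATPase, lay just outside at 1.999-fold, and PSME4 just inside at 2.002-fold.

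The promoter cover gave a different order from the promoter height. Within 1 kb of the start site the median cover of the 39 members was 1.07 kb in shSKP2 and 0.855 kb in shSCR, and the median ratio of 1.17 lay below that of all genes marked in both (1.51). The median shSCR cover of those genes was 0.573 kb, below that of the members, and the part of this width in the lower ratio was not tested. The peak map around the start sites was then used to split the window at the start site, a choice made after these values were seen. Downstream of the start, all 39 members were covered in shSCR, beside 76.2% of all genes marked in both, and 37 in shSKP2 (not PSMB3 and PSMB9). Summed over members, downstream cover was 26.97 kb in shSKP2 and 23.6 kb in shSCR, a ratio of 1.14 beside 1.52 over all genes. Upstream cover was 14.9 kb in shSKP2 and 8.38 kb in shSCR, a ratio of 1.78 beside 1.58. Within this window the difference between the arms at the members was therefore mostly on the upstream side. Outside the window, cover in the domains of the 43 members summed to 29.9 kb in shSKP2 and 16.99 kb in shSCR.

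The upstream kilobase was covered in 33 of 39 members in shSKP2 (84.6%, beside 80.2% of all genes marked in both) and in 24 of 39 in shSCR (61.5%, beside 65.8%). It was covered in shSKP2 only for 9 (PSMA2, PSMA6, PSMA7, PSMB6, PSMC1, PSMD2, PSMD8, PSMD9 and PSMD11), and in shSCR only for 0. The 9 were 23.1% of the 39, beside 16.1% of all genes marked in both. The share was similar for complex I genes marked in both (21.9%) and lower for ribosomal protein genes (11.25%). Any covered base counted, and the upstream cover in shSKP2 was 0.024 kb for PSMD11 and 0.081 kb for PSMA7. The PSMA7 bases were the edge of a peak at the promoter of SS18L1, whose start lies 375 bp away. The 9 were named after their values were seen. PSMA2, PSMA6, PSMB6, PSMD2, PSMD8 and PSMD9 were also among the members past 2-fold in cover.

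**Figure D3:**
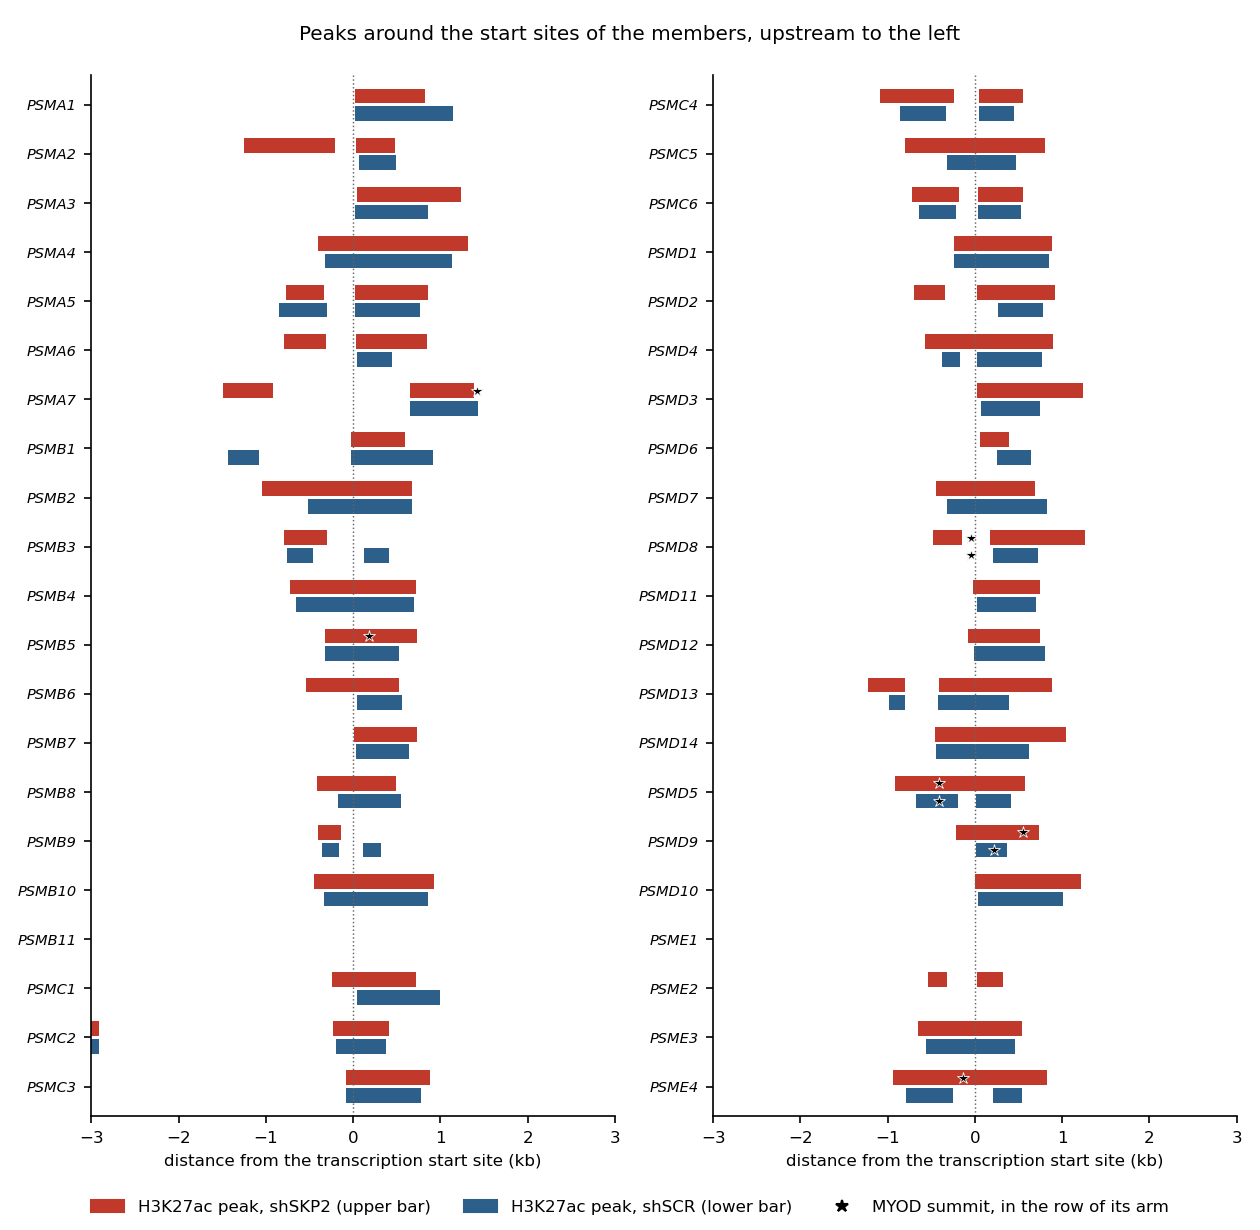
Peaks within 3 kb of the start site of 42 members (PSMA8 has no peak at all, and PSMB11 and PSME1 have none in the window), as distance in kb with upstream to the left. H3K27ac peaks are bars, red for shSKP2 above and blue for shSCR below, and black stars mark MYOD summits. In PSMA2, PSMA6, PSMD2 and PSMD8 the shSKP2 row has an upstream bar with no shSCR bar beneath it.

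**Figure D4:**
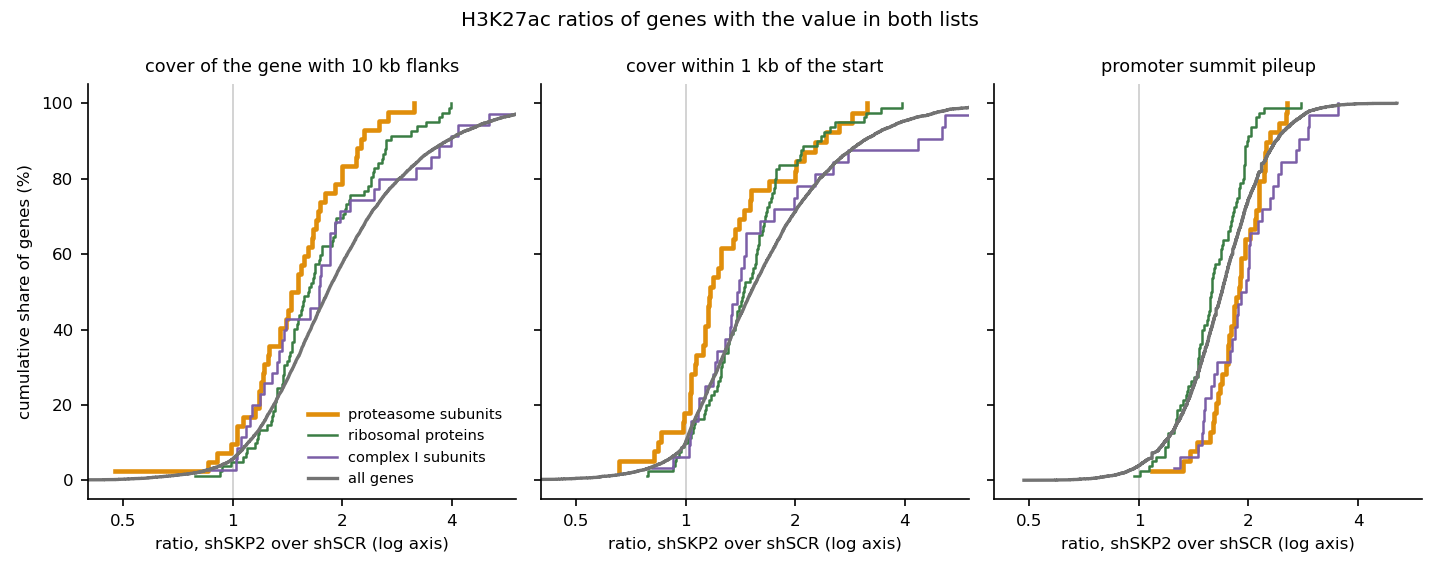
Cumulative share of genes (%) by the ratio of shSKP2 over shSCR (log axis) for domain cover, cover within 1 kb of the start and promoter summit pileup over the library's lowest background. Proteasome genes (orange) lie left of all genes (grey) in both cover panels, with medians of 1.48 against 1.82 and 1.17 against 1.51, and right of them in the pileup panel (1.88 against 1.69).

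The alpha ring forms the gate of the 20S core, and its 7 constitutive genes all had more cover in shSKP2. PSMA2 had 2.197 kb in shSKP2 and 0.973 kb in shSCR. In shSKP2 a peak of 1042 bp reached over the divergent promoter of MRPL32, whose start lies 202 bp away, and no shSCR peak overlapped it, so the promoters of the pair cannot be told apart. Over the gene body alone, the difference for PSMA2 was 0.016 kb in place of 1.22 kb, no longer 2-fold. PSMA6 had 1.29 kb in shSKP2 and 0.409 kb in shSCR, the largest ratio of any member (3.16). Its downstream peak was 814 bp wide with a fold of 7.74 in shSKP2, and 409 bp with 4.80 in shSCR. A second peak from -791 to -315 bp was in the shSKP2 list only. With peaks of -log10 p of at least 10 the difference for PSMA6 was 0.405 kb in place of 0.882 kb, no longer 2-fold. PSMA7 had the weakest promoter fold of the core, 3.99 in shSKP2 and 3.35 in shSCR. The other alpha genes had ratios of cover between 1.18 (PSMA4) and 1.67 (PSMA7). PSMA1 had 2.48 kb in shSKP2 and 1.64 kb in shSCR over its whole domain, but 0.796 kb in shSKP2 and 0.975 kb in shSCR in the kilobase downstream of the start.

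The constitutive beta ring holds the 3 proteolytic subunits, PSMB6 (caspase-like), PSMB7 (trypsin-like) and PSMB5 (chymotrypsin-like, the main target of bortezomib). PSMB6 had 1.67 kb in shSKP2 and 0.763 kb in shSCR, and its promoter peak was 1072 bp wide in shSKP2 and 509 bp in shSCR. A peak at the promoter of the neighbor GLTPD2, from -6366 to -5768 bp, was in the shSKP2 list only, and over the gene body alone the difference was 0.041 kb in place of 0.908 kb, no longer 2-fold. PSMB5 had 2.56 kb in shSKP2 and 1.80 kb in shSCR, with a promoter fold of 10.7 in shSKP2 and 8.12 in shSCR. PSMB7 was nearly equal, with 0.719 kb in shSKP2 and 0.607 kb in shSCR, although its fold was 7.40 in shSKP2 and 5.50 in shSCR. The 3 proteolytic genes thus all had a higher fold in shSKP2, while only PSMB6 passed 2-fold in cover.

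The constitutive beta genes had the lowest median ratio of cover of any group, 1.18. PSMB1 had 0.613 kb in shSKP2 and 1.29 kb in shSCR (ratio 0.475), the only member at least 2-fold lower. Its promoter peak was 613 bp wide in shSKP2 and 936 bp in shSCR, and a peak at the neighboring TBP promoter, from -1438 to -1085 bp with a fold of 3.79, was in the shSCR list only. The promoter fold of PSMB1 was nevertheless 10.2 in shSKP2 and 9.20 in shSCR, so the peak was narrower but not lower. Over the gene body alone the difference for PSMB1 was -0.323 kb in place of -0.677 kb, no longer 2-fold. PSMB3 had 0.846 kb in shSKP2 and 0.936 kb in shSCR. Its upstream promoter peak was stronger in shSKP2, with a fold of 6.27 against 3.58 in shSCR, while a weak downstream peak with a fold of 3.06 was in the shSCR list only. PSMB4 had 1.45 kb in shSKP2 and 1.35 kb in shSCR.

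The tissue-restricted core genes include the interferon-induced immunoproteasome subunits PSMB8, PSMB9 and PSMB10, which replace proteolytic subunits in antigen-presenting cells. PSMB8 and PSMB9 are neighbors, and their domains held the same peaks, 2.10 kb in shSKP2 and 1.56 kb in shSCR. The promoter fold of PSMB8 was 7.01 in shSKP2 and 3.38 in shSCR, the largest ratio of promoter folds among the members (2.08). PSMB9 shares its promoter region with TAP1, a peptide transporter whose start lies 488 bp away, and its fold was 7.87 in shSKP2 and 5.35 in shSCR. PSMB10 had a fold of 6.54 in shSKP2 and 4.51 in shSCR. All 3 immunoproteasome promoters were thus marked in both arms, with ratios of 1.45 to 2.08. PSMB11 had no promoter peak, and its 1.06 kb in shSKP2 and 0.842 kb in shSCR were the promoter peak of PSMB5, whose domain overlaps it.

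The ATPase ring unfolds substrates, and all 6 of its genes had more cover in shSKP2, none past 2-fold. PSMC5 came closest, with one promoter peak of 1601 bp in shSKP2 and 801 bp in shSCR and a fold of 11.6 in shSKP2 and 9.70 in shSCR. In both lists this peak also overlapped the promoter window of FTSJ3. PSMC3 had the highest fold of the 39 members in shSKP2, 11.97, against 8.28 in shSCR. PSMC1 was nearly equal in cover, with 0.973 kb in shSKP2 and 0.946 kb in shSCR, while its fold was 10.3 in shSKP2 and 7.39 in shSCR.

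Among the genes of the base, PSMD1 had the most cover of any member, 7.04 kb in 9 peaks in shSKP2 and 5.82 kb in 12 peaks in shSCR, in a domain of 136 kb in which the serotonin receptor gene HTR2B is nested. PSMD2, the ubiquitin-shuttle docking subunit, had 1.76 kb in shSKP2 and 0.765 kb in shSCR, but over the gene body alone the difference was 0.378 kb in place of 0.99 kb, no longer 2-fold. A peak from -694 to -343 bp was in the shSKP2 list only, and at the promoter of its neighbor EIF4G1 each list had a separate peak. PSMD4, a ubiquitin receptor, had one peak of 1462 bp in shSKP2 where shSCR had 2 peaks.

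The lid removes ubiquitin from substrates, and its genes included the largest positive difference in cover and 2 of the 4 negative ones. PSMD8, a lid subunit, had 2.91 kb in 5 peaks in shSKP2 and 1.15 kb in 2 peaks in shSCR. Its downstream promoter peak was 1092 bp wide with a fold of 9.40 in shSKP2, and 513 bp with 6.27 in shSCR. A peak from -478 to -146 bp with a fold of 4.11 was in shSKP2 only, as were 2 peaks near the promoters of GGN and SPRED3, the nearer one from 13139 bp downstream. PSMD6 had the weakest promoter pileup, a narrow peak of 336 bp in shSKP2 and 394 bp in shSCR with folds of 5.36 and 5.09. PSMD7 was nearly equal in width in the arms, 1.14 kb in shSKP2 and 1.15 kb in shSCR, but higher in shSKP2, with a fold of 10.3 against 6.16 in shSCR. PSMD12 had 0.828 kb in shSKP2 and 0.807 kb in shSCR. PSMD14, the deubiquitinase of the lid, had a fold of 7.24 in shSKP2 and 6.12 in shSCR.

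The chaperones that assemble the 19S base were higher in shSKP2 in cover, promoter fold and pileup. PSMD9 had 1.80 kb in shSKP2 and 0.672 kb in shSCR, with a promoter peak of 954 bp and a fold of 11.5 in shSKP2, against 362 bp and 7.98 in shSCR. PSMD5 had one peak of 1.48 kb in shSKP2 across 2 separate shSCR peaks that summed to 0.876 kb. PSMD10, the oncoprotein gankyrin, had 1.22 kb in shSKP2 and 0.968 kb in shSCR.

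The activators open the core gate without ubiquitin. PSME1 had 3.19 kb in shSKP2 and 1.99 kb in shSCR, none of it at its own start site: the peaks lay at the promoters of FITM1 upstream, EMC9 downstream and PSME2. PSME2 had 1.64 kb in shSKP2 and 0.754 kb in shSCR, with promoter peaks of 300 and 214 bp in shSKP2 and folds of 4.31 and 3.36, where the nearest shSCR peak was 4768 bp away. RNF31, a subunit of the linear ubiquitin ligase, starts 888 bp from PSME2, and the peaks touch both promoter windows. With lists of equal length the difference for PSME2 was 0.676 kb in place of 0.890 kb, no longer 2-fold. PSME3, a nuclear activator, had 2.76 kb in shSKP2 and 1.79 kb in shSCR. PSME4, the activator PA200, had one peak of 1760 bp in shSKP2 across 2 shSCR peaks of 544 and 335 bp, and lies 120 bp from the start of ACYP2.

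One shSKP2 peak joined several shSCR peaks at 3 member promoters (PSMD4, PSMD5 and PSME4), 7.69% of the 39, beside 11.4% of all genes marked in both. In all, 85 H3K27ac peaks in shSKP2 and 79 in shSCR overlapped the member domains, with median widths of 710 and 496 bp. Of these, 21 were in shSKP2 only (24.7%, beside 48.6% of the whole list) and 9 in shSCR only (11.4%, beside 13.6%). With lists of equal length the counts were 12 in shSKP2 only and 13 in shSCR only, and over the gene body alone 5 in each, so the higher count in shSKP2 depended on the length of the lists and on the flanks. Of the 21 peaks found in shSKP2 only, 7 lay at a member promoter, 10 at the promoter of another gene and 4 elsewhere, and 10 of the 21 lay within 1000 bp of a shSCR peak. Cover outside the member's own promoter window summed to 29.9 kb in shSKP2 and 16.99 kb in shSCR, and peaks there were found at 20 members in shSKP2 (46.5%, beside 51.3% of all genes) and 19 in shSCR (44.2%, beside 39.5%).

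MYOD peaks lay near a minority of the members, as they did over all genes. A peak fell in the domain in both lists for 6 of 43 (PSMA2, PSMD5, PSMD8, PSMD9, PSME1 and PSME2), beside 17.5% of all genes, and in shSKP2 only for 5 (PSMA7, PSMB5, PSMB11, PSMC6 and PSME4), beside 13.2%. PSMC3 had a peak in shSCR only, beside 4.39% of all genes. A peak in either list was found for 27.9% of members, beside 35.0% of all genes and 45.1% of genes with an H3K27ac promoter peak in shSCR. The share was 23.3% for cytosolic ribosomal protein genes and 31.6% for complex I genes, on either side of the members. The members' domains were shorter, with a median of 36.0 kb beside 47.5 kb. The unique peaks were 10 in shSKP2, 4 of them absent from shSCR (40%, beside 55.9% of the whole list), and 7 in shSCR, 1 of them absent from shSKP2 (14.3%, beside 35.9%). Only 1 member still had a peak in shSKP2 alone once peaks under a -log10 p of 10 were dropped, and 2 with lists of equal length, against 3 with a peak in shSCR alone.

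PSMD8 had the strongest MYOD peak at a member's own promoter, with a fold of 12.6 in shSKP2 and 12.4 in shSCR and summits at -44 and -46 bp. The CAGCTG printed for it lies at the summit, between the upstream and downstream H3K27ac peaks of the shSKP2 list. Divided by the lowest background of its library, the MYOD summit pileup was 29.9 in shSKP2 and 40.5 in shSCR, so the near equality held for the fold only. PSMD8 was the member with the largest difference in H3K27ac cover with 10 kb on each side (1.755 kb), but over the gene body alone its difference was 0.579 kb, below the 0.882 kb of PSMA6. PSMD5 had folds of 7.43 in shSKP2 and 5.76 in shSCR at -410 and -409 bp, inside H3K27ac peaks of both lists. PSMD9 had weak peaks, 3.97 in shSKP2 and 4.44 in shSCR, whose summits lay 548 and 217 bp downstream of the start, and only the window at the shSKP2 summit holds E-boxes.

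The site with the highest fold in shSKP2 lay in the domains of both PA28 genes, within EMC9, 4951 bp downstream of the PSME1 start, with a fold of 14.8 in shSKP2 and 11.1 in shSCR. A second site near PSME1, within the muscle gene FITM1, had 9.53 in shSKP2 and 10.9 in shSCR. The PSMA2 site within C7orf25 had 4.23 in shSKP2 and 4.33 in shSCR. Both PA28 sites and the PSMA2 site lay at the promoters of other genes.

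The peaks of the shSKP2 list alone had folds of 3.84 to 6.47, beside a median of 5.35 over the whole shSKP2 MYOD list. PSMC6 had 6.47 at a site 22848 bp downstream of its start, near the promoter of STYX and outside H3K27ac peaks of both lists. PSME4 had 5.44 at -136 bp, PSMB5 had 4.08 at 177 bp and PSMA7 had 3.84 at 1417 bp, all with peaks that overlapped H3K27ac peaks of both lists. The nearest shSCR peak was 35954 bp away or more for these 4. PSMC3 had 4.17 in shSCR at -6849 bp, outside H3K27ac.

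**Figure D5:**
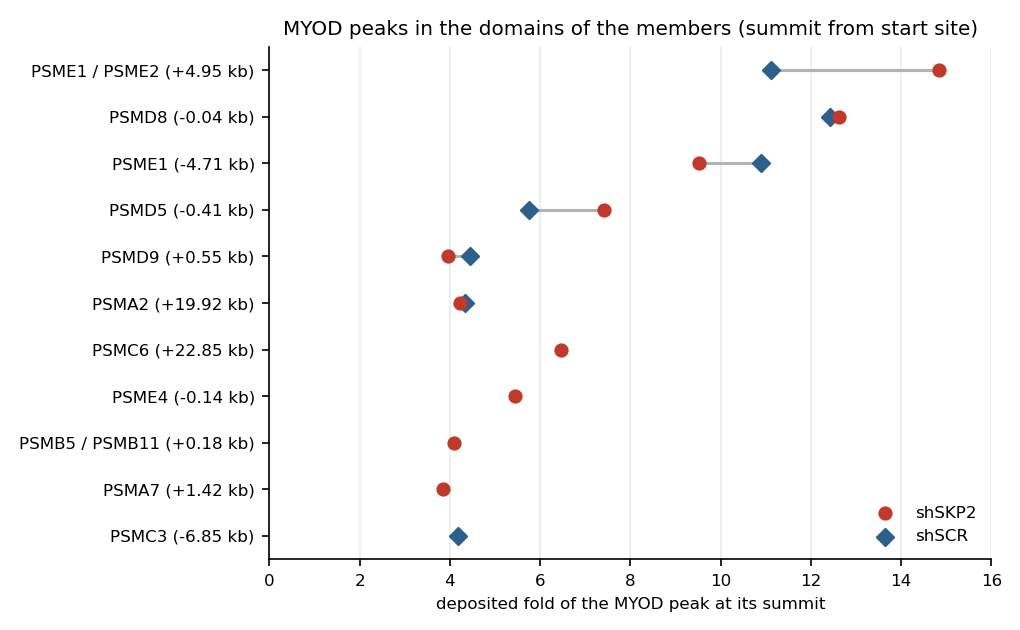
Deposited fold of each MYOD peak in the domains of the members, shSKP2 as red circles and shSCR as blue diamonds, with the distance of the summit from the start site of the first gene named. The 6 shared sites stand above the 4 found in shSKP2 only and the 1 in shSCR only, and the PSMD8 folds of 12.6 and 12.4 nearly coincide.

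The 33 other genes of the pathway assemble, regulate or feed the proteasome. In the lists as deposited they were more often past 2-fold than the subunits. Cover was at least 2-fold higher in shSKP2 for 15 of 33 (45.5%, beside 35.9% of all genes) and at least 2-fold lower for 0. The median ratio was 1.78 over the 30 covered in both lists. Their domains were longer, with a median of 49.4 kb beside 36.0 kb for the subunits. With only peaks of -log10 p of at least 10, 17 of 43 subunits were past 2-fold, and the 33 were not recomputed at that setting. A promoter peak was in both lists for 29 and in shSKP2 only for 4 (POMP, a core assembly factor, PSMF1, an inhibitor of the 20S core, USP14, a deubiquitinase of the 19S particle, and NGLY1, which activates NFE2L1 by deglycosylation), named after their values were seen. NFE2L1, which drives the subunit genes, had 2.29 kb in 5 peaks in shSKP2 and 0.824 kb in 3 peaks in shSCR. Its promoter fold was lower in shSKP2, 3.47 against 4.07 in shSCR. NFE2L2, the relative of NFE2L1 in the oxidative stress response, had the largest difference in cover, 9.83 kb in shSKP2 and 4.27 kb in shSCR. The promoter fold of NFE2L2 was also lower, 5.65 in shSKP2 against 6.31 in shSCR. Of the 29 pathway genes marked in both lists, 24 had a higher promoter fold in shSKP2 (82.8%, beside 79.2% of all genes marked in both). NFYC, a subunit of NF-Y, had 4.28 kb in shSKP2 and 2.06 kb in shSCR, and PAAF1, which binds the 19S ATPases, 2.63 kb in shSKP2 and 0.572 kb in shSCR. The smallest differences were those of UBQLN1, a ubiquitin shuttle, with 1.16 kb in shSKP2 and 1.25 kb in shSCR, NFYB, with 0.710 kb in shSKP2 and 0.796 kb in shSCR, and TXNL1, a thioredoxin of the 19S particle, with 1.42 kb in shSKP2 and 1.46 kb in shSCR. MYOD peaks lay in the domains of 4 of the 33 in both lists, of 5 in shSKP2 only and of 1 in shSCR only.

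Other multi-subunit housekeeping complexes were set beside the proteasome. Cover at least 2-fold higher in shSKP2 was found for 25 of 86 cytosolic ribosomal protein genes (29.1%) and 12 of 38 complex I genes (31.6%), beside 18.6% of the proteasome genes, and the median ratios of cover were 1.62, 1.73 and 1.48 in that order. The median ratio of promoter folds was 1.13 for ribosomal protein genes, 1.28 for complex I genes and 1.28 for proteasome genes. Downstream of the start the summed cover ratios were 1.40 for ribosomal protein genes and 1.39 for complex I genes, and upstream 1.52 and 1.65. The low downstream ratio (1.14) and high upstream ratio (1.78) of the proteasome genes were the extremes among these lists and all genes, as a description with no test.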

How the data were processed

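H3K27ac and MYOD ChIP-seq of RD cells was analysed from 4 deposited peak lists, 1 per antibody and arm, with groups taken from the sample titles. Per the study's methods, chromatin was fixed with formaldehyde, digested with MNase and mixed with Drosophila chromatin as a spike-in. The authors mapped reads to GRCh38 (hg38) with BWA 0.7.17, normalised samples to the Drosophila reads, called peaks per sample with MACS3 and removed regions of the ENCODE exclusion list. Use of the Drosophila scaling during peak calling itself is not given in the sources used here, and a scaling or depth difference would change how many and how wide the peaks are. The deposited lists give for each peak a fold of summit pileup over local background, -log10 p and q and an integer score. Per the deposited values, the weakest peaks reached a -log10 p of 4.00. The score was not used in results.

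Domains were the gene body with 10 kb on each side, promoters the start of the canonical GENCODE 44 transcript with 1 kb on each side, and peaks were assigned or shared at an overlap of 1 bp. Summit pileup was solved from the deposited fold and -log10 p (tolerance 0.001). A gene was called higher or lower at 2-fold cover, or when covered in 1 list only. Python 3.11.15, numpy 2.4.6, pandas 2.3.3, scipy 1.17.1 and matplotlib 3.10.9 were used, and the scripts were tested on simulated data. Sequences came from hg38 and RefSeq. No test was run, since each group had 1 library. Alternatives were -log10 p of at least 5 or 10, lists of equal length, other flanks and windows, 1.5-fold and a reciprocal overlap of 50%.

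Named by rule were members with a MYOD peak, the 8 largest and 8 smallest differences in cover, members whose promoter call differed or was absent, PSMB5 to PSMB11 and PSME1 to PSME4, and in the pathway list the 3 largest, the 3 smallest and NFE2L1. Other members were named after their values were seen. The members and lists were chosen with earlier results of these data known.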

Additional observations from a re-analysis of the deposited data

Results flagged for a closer look

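Each H3K27ac list held 1 peak on a contig that is not a human chromosome and that no comparison used. Its fold was 21.7 in shSKP2, over 222 bp, and 5.82 in shSCR, over 193 bp. The contig carries the name of SV40, and the source of these reads was not tested.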

How the results depend on the processing

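No paired analysis was possible because each group had 1 library and no result came from a test. With 1 library per group, leaving out a replicate was not possible either. The 8 members past 2-fold in cover became 17 with peaks of -log10 p of at least 10 and 21 at 1.5-fold. The 6 members with a MYOD peak in both lists became 2 over the gene body alone, and the 5 with one in shSKP2 only became 1 at a -log10 p of at least 10, 2 with lists of equal length and 2 over the gene body alone. The 21 H3K27ac peaks found in shSKP2 only became 12 with lists of equal length. They became 5 over the gene body alone and 35 under a reciprocal overlap of 50%. The 9 H3K27ac peaks in shSCR only became 13, 5 and 29 under the same settings. The 4 MYOD peaks in shSKP2 only became 1 at a -log10 p of at least 10. They became 2 with lists of equal length and 2 over the gene body alone. The 1 MYOD peak in shSCR only became 0, 3 and 0 in the same order. Under a reciprocal overlap of 50%, 6 of 10 MYOD peaks were in shSKP2 only and 3 of 7 in shSCR only. In 33 settings of the leading results, that of these 6 peaks among them, the values stayed within 1.5 times. None of the differences or ratios recomputed changed sign. With lists of equal length, however, the excess of single-list peaks and of MYOD members turned toward shSCR (12 against 13 peaks, 2 against 3 members). The median ratio of cover ranged between 1.201 and 1.66 over the alternatives, against 1.58 to 1.88 for all genes. The upstream ratio of summed promoter cover was 1.69 to 1.78 (all genes 1.52 to 1.58) and the downstream ratio 1.14 to 1.22 (all genes 1.45 to 1.52), in settings added after seeing the data. Depth was known only through the lowest background, and fewer peaks in shSCR and a lower level of the mark cannot be told apart at the threshold.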
